A study of Mus musculus with 16 samples.

Results

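The 10 genes described here are used to follow hepatic stellate cells in liver, and they were read on 16 arrays of mouse liver. They comprised 3 contractile (myofibroblast) markers, Acta2, Tagln and Cnn1, 4 cytoskeletal and receptor genes, Des, Pdgfra, Pdgfrb and Ngfr, and 3 quiescence and identity markers, Lrat, Reln and Cygb. The genes were chosen by name, with no threshold on their values, and all 10 were among the 24357 genes that passed the signal filter. BALB/c males, 6 to 8 weeks of age, were wild type (WT) or carried no functional Lcn2 (Lcn2-/-), and received CCl4 in corn oil or corn oil alone for 4 weeks. CCl4 is a hepatotoxin that hepatocytes convert to a reactive radical, and it was injected intraperitoneally at 0.5 ml/kg, 2 times a week, with livers taken 48 h after the last dose. For WT, 4 arrays came from controls and 5 from mice given CCl4, and for Lcn2-/- these numbers were 3 and 4. The Lcn2 deletion was made on a mixed 129/Ola and C57BL/6 background and had been backcrossed to BALB/c. Each array measured RNA of whole liver, so fewer cells of a type and less RNA per cell cannot be told apart. The labels number the replicates without saying more of them, and p-values measure the spread between these samples.

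Stellate cells lie between the hepatocytes and the sinusoidal endothelium and store vitamin A as retinyl esters, which Lrat makes. After injury they can lose these stores, divide under platelet-derived growth factor through Pdgfra and Pdgfrb, lay down fibrillar collagen, and take on the actin, calponin and transgelin of smooth muscle. Acta2, Tagln, Cnn1 and Des are also made by the smooth muscle of vessels, and Pdgfra and Pdgfrb by portal fibroblasts, so none of these transcripts belongs to stellate cells alone.

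The RefSeq promoter table (GRCm38.p6) held a window of 300 bases around the start of 7 of the 10 genes, with no entry for Tagln, Pdgfrb and Cygb. The 250 bases before the start are shown for Acta2 (chr19:34255374-34255623, minus strand), the stress fibre actin that did not pass the test under CCl4, for Pdgfra (chr5:75152001-75152250, plus strand), Lrat (chr3:82903975-82904224, minus strand) and Reln (chr5:22344706-22344955, minus strand), which rose in both genotypes, and for Ngfr (chr11:95587699-95587948, minus strand), which fell in WT. Capitals mark the GC box, GGGCGG on either strand.
Acta2: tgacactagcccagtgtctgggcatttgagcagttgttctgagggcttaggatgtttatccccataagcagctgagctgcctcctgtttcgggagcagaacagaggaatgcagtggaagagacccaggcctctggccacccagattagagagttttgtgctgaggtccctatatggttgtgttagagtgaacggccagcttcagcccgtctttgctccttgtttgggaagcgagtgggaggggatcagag
Pdgfra: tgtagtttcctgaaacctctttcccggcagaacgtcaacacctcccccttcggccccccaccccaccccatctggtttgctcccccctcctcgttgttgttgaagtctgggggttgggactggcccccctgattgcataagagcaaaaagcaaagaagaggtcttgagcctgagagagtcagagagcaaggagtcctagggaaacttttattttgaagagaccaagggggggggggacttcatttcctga
Lrat: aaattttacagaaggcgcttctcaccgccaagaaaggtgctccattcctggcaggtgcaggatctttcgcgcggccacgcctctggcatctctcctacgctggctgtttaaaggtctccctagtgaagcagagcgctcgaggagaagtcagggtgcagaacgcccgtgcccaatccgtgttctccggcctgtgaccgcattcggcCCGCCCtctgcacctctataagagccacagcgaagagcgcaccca
Reln: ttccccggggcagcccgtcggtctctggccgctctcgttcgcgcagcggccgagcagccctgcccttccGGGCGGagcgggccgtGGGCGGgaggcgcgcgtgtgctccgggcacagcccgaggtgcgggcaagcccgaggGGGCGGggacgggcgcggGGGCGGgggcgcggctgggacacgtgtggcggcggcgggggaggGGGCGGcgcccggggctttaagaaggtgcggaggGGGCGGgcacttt
Ngfr: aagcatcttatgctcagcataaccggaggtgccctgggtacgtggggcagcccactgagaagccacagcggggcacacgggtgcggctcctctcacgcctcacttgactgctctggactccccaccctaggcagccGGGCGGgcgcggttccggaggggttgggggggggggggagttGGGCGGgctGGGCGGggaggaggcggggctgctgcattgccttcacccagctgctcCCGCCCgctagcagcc
The GC box occurred 6 times before the start of Reln, 4 times before that of Ngfr, 2 times before that of Des and 1 time before that of Lrat, and in none of the windows of Acta2, Cnn1 and Pdgfra. Of all 32851 windows of this length, 35.7% held it. The letters TATAAA, on either strand, were in 13.6% of all windows and in none of the 7. Genes that rose and the gene that fell both held GC boxes.

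Lcn2 itself gave log2 signals of 10.47 to 12.25 on the 7 Lcn2-/- arrays and 13.79 to 17.57 on the 9 WT arrays, so every Lcn2-/- array was below every WT array, although none was without signal. Where the probe lies relative to the deletion was not analysed here. The highest value, 17.57, was that of WT control 3, while the other WT controls read 13.79 to 14.69 and the WT CCl4 arrays 14.22 to 16.48. The 6 hepatocyte genes read as a check of the tissue were well above background on every array, 0 of them passed in either CCl4 response, and their summed signal lay between 20.42 and 20.82 on the log2 scale in Lcn2-/- CCl4 livers and between 20.44 and 20.73 in the other 3 groups. Between 51.49% and 60.83% of gene spots were well above background on an array, and the number of arrays limits the precision. WT control 3 and Lcn2-/- control 3 were each the control of their genotype nearest to the CCl4 arrays on the first principal component (40.1% of variance), and values without both are given where a call changed. All 7 controls and WT CCl4 1 were on 1 slide and the other 8 CCl4 arrays on a second, so the CCl4 response of Lcn2-/- mice and the slide cannot be told apart except through WT CCl4 1. With slide as a block the CCl4 responses of both genotypes therefore rest on WT CCl4 1, and other arrays give their spread.

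Under CCl4, the PDGF receptors, Lrat, Reln and Des rose in both genotypes and Cygb in WT, while the contractile markers did not pass the test in either. In WT mice 7 of the 10 genes passed limma's test at an adjusted p under 0.05, against 16.8% of all genes tested. Of these, 6 were higher (Pdgfra, Pdgfrb, Cygb, Lrat, Des and Reln), where 8.01% of all genes were called higher, and Ngfr was lower, where 8.8% of all genes were. In Lcn2-/- mice 5 of the 10 passed, against 12.2% of all genes, and all 5 were higher (Pdgfrb, Pdgfra, Reln, Lrat and Des), against 6.57% called higher among all genes. With slide as a block 5 of the 10 genes (1302 of all genes) were called in WT and 3 (425 of all genes) in Lcn2-/- mice, and without Lcn2-/- control 2 the Lcn2-/- count was 3. The median log2 difference over the 10 genes was 0.92 in WT and 1.02 in Lcn2-/- mice, beside -0.032 and -0.023 over all genes. The CCl4 and control arrays did not overlap for 4 of the 10 genes in WT (17.4% of all genes) and for 6 in Lcn2-/- mice (24.8% of all genes). Scaling each array to its 75th percentile in place of quantile normalization gave a median over all genes of -0.16 in WT and -0.14 in Lcn2-/- mice, and moved the share of called genes that were higher from 47.7% to 30.8% in WT and from 53.9% to 36.5% in Lcn2-/- mice. No member changed direction in either response under it.

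**Figure D1:**
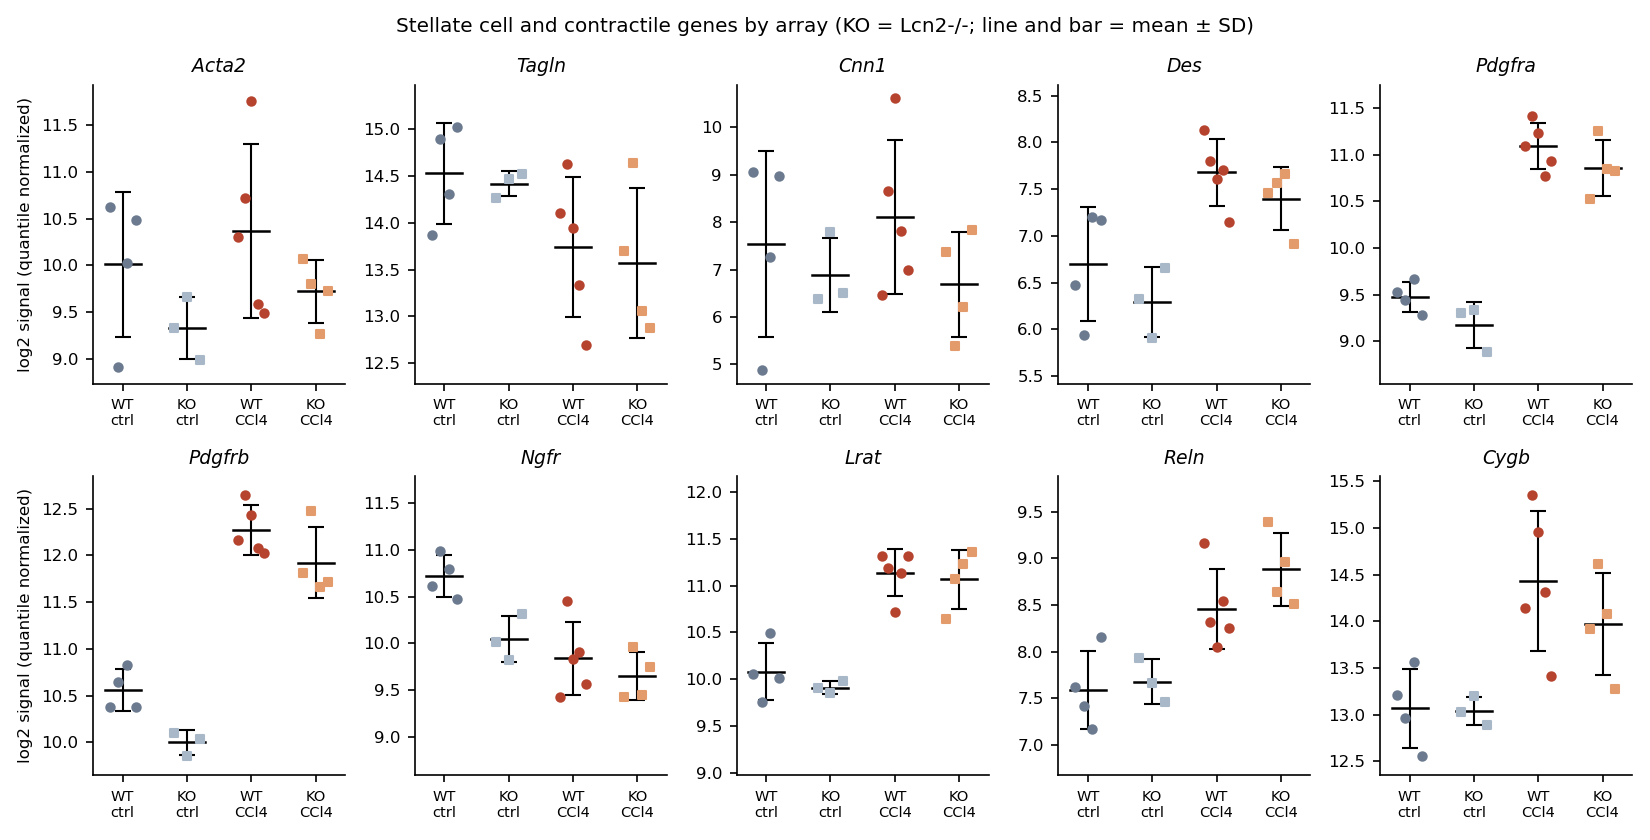
Log2 signal (quantile normalized) of each of the 10 genes on each array, by group, with the mean and SD drawn as a line and bar; each panel has its own axis. Pdgfra, Pdgfrb and Lrat were higher on every CCl4 array than on every control array, whereas the groups of Acta2, Tagln and Cnn1 overlapped.

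Lrat, the lecithin retinol acyltransferase that loads stellate cells with retinyl esters, was measured by a probe at chr3:82696805-82696864 (mm9). Its log2 signals were 10.05, 9.76, 10.49 and 10.01 on the WT control arrays and 11.32, 11.19, 10.72, 11.14 and 11.32 on the WT CCl4 arrays. In Lcn2-/- mice they were 9.9, 9.85 and 9.98 in controls and 10.64, 11.07, 11.23 and 11.36 under CCl4. Every CCl4 liver was above every control liver, and the genotypes overlapped within each treatment. The rise was 1.06 (SE 0.175, 2.09-fold, adjusted p = 0.000801) in WT and 1.16 (SE 0.199, 2.24-fold, adjusted p = 0.00171) in Lcn2-/- mice. With slide as a block the Lcn2-/- call was lost (log2 difference 1.39, adjusted p = 0.069). The blocked WT difference of 1.24 sets WT CCl4 1 alone against the WT controls, so it does not decide whether the WT call holds.

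Reln encodes reelin, a secreted glycoprotein used to mark stellate cells in liver, and its probe lies at chr5:21404915-21404974 (mm9). It read 7.62, 7.42, 7.17 and 8.16 in WT controls, and 9.16, 8.32, 8.05, 8.54 and 8.25 in WT CCl4 livers. It read 7.93, 7.66 and 7.46 in Lcn2-/- controls, and 9.39, 8.64, 8.96 and 8.51 in Lcn2-/- CCl4 livers. The Lcn2-/- groups did not overlap, while the lowest WT CCl4 liver fell below the highest WT control. The differences were 0.87 (SE 0.25, adjusted p = 0.0281) in WT and 1.19 (SE 0.284, adjusted p = 0.0134) in Lcn2-/- mice. Reln was the only one of the 10 with its highest group mean in Lcn2-/- CCl4 mice (8.88 ± 0.391, SD, n = 4, against 8.46 ± 0.428, n = 5, in WT CCl4), and that genotype difference did not pass the test (0.41, adjusted p = 0.487). The WT call was not kept in every setting. Without WT control 1, 2 and 3 in turn the difference was 0.88, 0.81 and 0.73 (adjusted p = 0.0682, 0.085 and 0.0676). Without WT CCl4 1 and 4 it was 0.69 and 0.85 (adjusted p = 0.0594 and 0.0553). It was 0.73 without both controls 3 (adjusted p = 0.0719) and 0.76 with 75th percentile scaling (adjusted p = 0.0559). In Lcn2-/- mice the difference was 1.18 without Lcn2-/- control 2 (adjusted p = 0.0512). With slide as a block the differences were 1.57 in WT and 2.07 in Lcn2-/- mice. Since these rest on WT CCl4 1, the highest WT CCl4 array for Reln, they do not decide whether the calls hold.

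Cygb, the oxygen-binding cytoglobin of stellate cells, had its probe at chr11:116507496-116507555 (mm9). WT controls gave 13.21, 12.97, 13.56 and 12.56, and WT CCl4 livers 14.14, 15.35, 14.96, 14.31 and 13.41. Lcn2-/- controls gave 13.03, 13.2 and 12.89, and Lcn2-/- CCl4 livers 13.92, 14.61, 14.08 and 13.28. The spread was wider under CCl4 than in controls in both genotypes, with SDs of 0.75 and 0.545 against 0.421 and 0.154. The WT rise of 1.36 (SE 0.35, 2.57-fold, adjusted p = 0.0161) passed. The Lcn2-/- difference of 0.93 (SE 0.398, adjusted p = 0.147, or 0.0161 with array weights) did not, although its groups did not overlap, and the difference between the responses was not past the threshold either (-0.43, 95% interval -1.56 to 0.71, adjusted p = 1). The Lcn2-/- difference was 0.57 with slide as a block (adjusted p = 0.749). The WT call was lost with slide as a block (1.07, adjusted p = 0.332) and without WT control 4 (adjusted p = 0.0528).

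Pdgfrb, the receptor for PDGF-B and PDGF-D chains on stellate cells and pericytes, rose in both genotypes. Its log2 signals were 10.38, 10.65, 10.83 and 10.38 in WT controls, and 12.16, 12.65, 12.43, 12.08 and 12.03 in WT CCl4 livers. They were 10.1, 9.85 and 10.04 in Lcn2-/- controls, and 11.81, 12.48, 11.66 and 11.72 in Lcn2-/- CCl4 livers. Control and CCl4 livers were clearly apart in both genotypes. The rise was 1.71 (SE 0.18, 3.27-fold, adjusted p = 2.72e-05) in WT and 1.92 (SE 0.205, 3.78-fold, adjusted p = 4.99e-05) in Lcn2-/- mice.

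Pdgfra, the receptor that also binds PDGF-A and PDGF-C chains, was measured by 10 spots per array of a probe at chr5:75593888-75593947 (mm9), whose values on an array had a median SD of 0.0387. It read 9.53, 9.44, 9.67 and 9.28 in WT controls, and 11.09, 11.41, 11.23, 10.77 and 10.93 in WT CCl4 livers. It read 9.3, 9.34 and 8.89 in Lcn2-/- controls, and 10.53, 11.25, 10.85 and 10.82 in Lcn2-/- CCl4 livers. No CCl4 liver came within the range of the controls. The rise was 1.6 (SE 0.164, 3.04-fold, adjusted p = 2.27e-05) in WT and 1.68 (SE 0.187, 3.21-fold, adjusted p = 6.52e-05) in Lcn2-/- mice. Both receptors stayed called in both genotypes under every alternative setting other than slide as a block. With slide as a block the differences in WT and Lcn2-/- mice were 1.61 and 1.69 for Pdgfra, and 1.59 and 1.78 for Pdgfrb. These rest on WT CCl4 1, so they do not decide whether the calls hold.

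Des encodes desmin, the intermediate filament of rodent stellate cells and of muscle. The probe lies between chr1:75363404 and chr1:75363629 (mm9) and had 10 spots per array. WT controls read 6.47, 5.94, 7.2 and 7.17 and WT CCl4 livers 8.13, 7.8, 7.61, 7.7 and 7.15. Lcn2-/- controls read 6.32, 5.91 and 6.66 and Lcn2-/- CCl4 livers 7.46, 7.57, 7.66 and 6.91. In WT the lowest CCl4 liver lay just below the highest controls, and in Lcn2-/- mice the groups did not overlap. Des rose by 0.98 (SE 0.274, adjusted p = 0.0244) and 1.11 (SE 0.312, adjusted p = 0.0326), or by 0.64 and 0.68 with normexp background correction, both called. Without WT control 1 and 2 the WT difference was 0.9 and 0.73 (adjusted p = 0.0818 and 0.0895). Without WT CCl4 1 and 2 it was 0.87 and 0.95 (adjusted p = 0.0591 and 0.0522). With 75th percentile scaling it was 0.81 (adjusted p = 0.0655), and with slide as a block 1.44 (adjusted p = 0.0851). The Lcn2-/- difference was 1.12 and 0.91 without Lcn2-/- control 1 and 2 (adjusted p = 0.0924 and 0.147). Without Lcn2-/- CCl4 1, 2 and 3 it was 1.09, 1.05 and 1.02 (adjusted p = 0.0663, 0.0669 and 0.0791). With 75th percentile scaling it was 0.83 (adjusted p = 0.12), and with slide as a block 1.67 (adjusted p = 0.145).

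Ngfr, the low-affinity neurotrophin receptor p75, which stellate cells, portal fibroblasts and nerves carry, moved the other way. Its probe (chr11:95430211-95430270, mm9, 10 spots per array) gave 10.62, 10.99, 10.8 and 10.48 in WT controls, and 9.43, 10.45, 9.83, 9.91 and 9.57 in WT CCl4 livers. Lcn2-/- controls gave 10.02, 9.82 and 10.31, and Lcn2-/- CCl4 livers 9.43, 9.96, 9.45 and 9.75. WT controls were thus above every other liver, and the other 3 groups overlapped. The signal fell by 0.88 in WT (SE 0.197, 1.85-fold lower, adjusted p = 0.00685), and stayed called under every alternative setting other than slide as a block. The Lcn2-/- difference was -0.41 (SE 0.224, adjusted p = 0.265), and the difference between the responses was 0.48 (95% interval -0.16 to 1.12, adjusted p = 1). With slide as a block the Lcn2-/- difference was -0.91 (SE 0.376, adjusted p = 0.256), beside -1.29 (SE 0.31) in WT. The blocked values rest on WT CCl4 1, the lowest WT CCl4 array for Ngfr, so they do not decide whether the WT call holds. Without Lcn2-/- control 3 and with no block the Lcn2-/- difference was -0.27.

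Acta2, alpha smooth muscle actin, is the usual marker of the myofibroblast, and its probe (chr19:34316060-34316119, mm9) had 10 spots per array with a median SD of 0.0377 between them. It read 10.62, 8.91, 10.03 and 10.48 in WT controls, and 10.3, 10.72, 11.76, 9.59 and 9.49 in WT CCl4 livers. It read 9.33, 9.66 and 8.99 in Lcn2-/- controls, and 10.07, 9.8, 9.27 and 9.73 in Lcn2-/- CCl4 livers. WT control 2 and WT CCl4 3 stood at the ends of the range, and all 4 groups overlapped. The differences of 0.36 (95% interval -0.57 to 1.29, adjusted p = 0.618) in WT and 0.39 (95% interval -0.67 to 1.45, adjusted p = 0.659) in Lcn2-/- mice did not pass, and the intervals include a rise of the size measured for Lrat. Without WT control 2 the WT difference was 0. The spread between the 10 spots of an array was far below that between livers, whose pooled SD within a group was 0.697.

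Tagln, the actin-binding transgelin, had a probe at chr9:45738097-45738156 (mm9). It gave 13.87, 14.9, 14.31 and 15.03 in WT controls, and 14.11, 14.63, 13.94, 13.34 and 12.69 in WT CCl4 livers. It gave 14.27, 14.47 and 14.52 in Lcn2-/- controls, and 13.7, 14.64, 13.06 and 12.87 in Lcn2-/- CCl4 livers. The CCl4 means were lower than the control means, by -0.79 (95% interval -1.66 to 0.08, adjusted p = 0.208) in WT and -0.85 (95% interval -1.84 to 0.14, adjusted p = 0.257) in Lcn2-/- mice, and neither passed. The differences were -0.42 (SE 0.692) and -0.4 (SE 0.838) with slide as a block, and did not pass either.

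Cnn1, the smooth muscle calponin, had a probe at chr9:21913058-21913117 (mm9). It read 9.05, 4.88, 7.26 and 8.97 in WT controls, where the second value was not well above background, and 6.47, 8.66, 10.62, 7.82 and 7 in WT CCl4 livers. Lcn2-/- controls read 6.37, 7.79 and 6.51, and Lcn2-/- CCl4 livers 7.36, 5.38, 6.2 and 7.83. Cnn1 was the most variable of the 10, with a pooled SD within groups of 1.5. The differences were 0.57 (95% interval -1.42 to 2.57, adjusted p = 0.722) and -0.2 (95% interval -2.46 to 2.07, adjusted p = 0.931), so changes in either direction of over 2-fold lie within the error. With slide as a block the WT value turned to -1.07 (SE 1.5) and the Lcn2-/- value was -2.25 (SE 1.82), neither past the threshold.

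**Figure D2:**
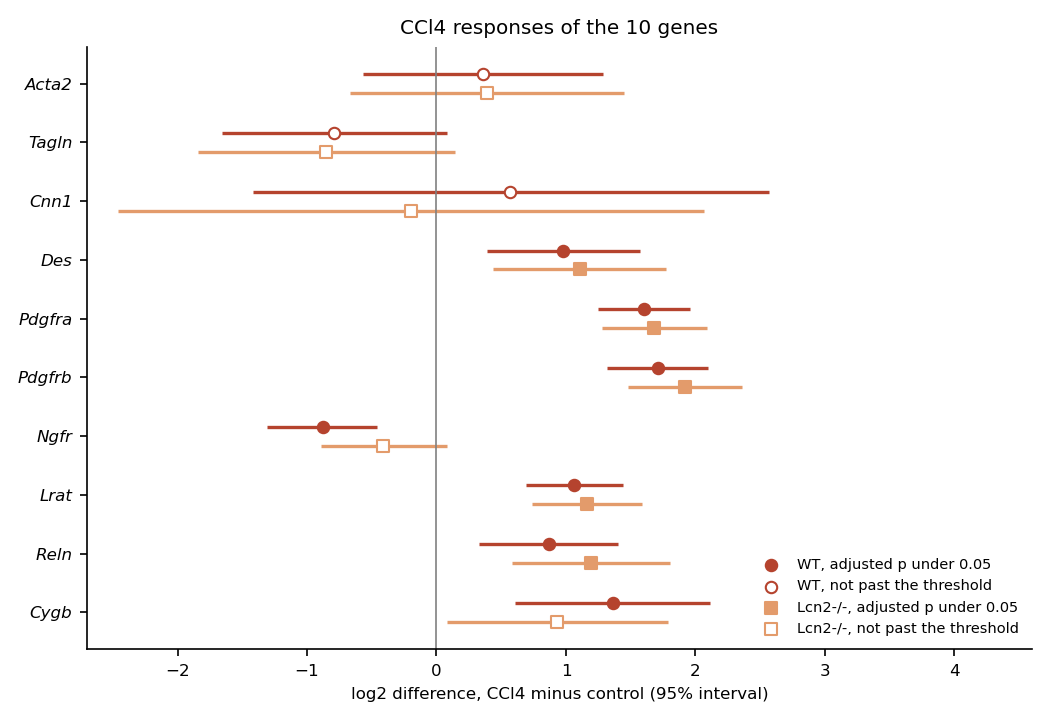
Log2 difference between CCl4 and control for each gene in WT (circles) and Lcn2-/- (squares) mice, with its 95% interval from limma and filled symbols for an adjusted p under 0.05. The intervals of Acta2, Tagln and Cnn1 all include 0, and those of Pdgfra, Pdgfrb and Lrat start at 0.69 or above.

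Set against each other liver by liver, the mean of the identity markers separated the treatments and the mean of the contractile markers did not. The mean shift of Lrat, Reln and Cygb from the controls of the same genotype ran from -0.2 to 0.16 over the control arrays, from 0.74 to 1.37 over the WT CCl4 arrays and from 0.84 to 1.23 over the Lcn2-/- CCl4 arrays. The same mean over Acta2, Tagln and Cnn1 ran from -1.13 to 0.8 over the control arrays, from -0.97 to 1.42 over WT CCl4 and from -0.7 to 0.17 over Lcn2-/- CCl4. The contractile shifts of the treatments overlapped, the lowest being in WT control 2 and the highest in WT CCl4 3. The contractile mean sets Tagln (-0.79 in WT and -0.85 in Lcn2-/- mice) against Acta2 (0.36 and 0.39). Cnn1, the most variable, was lowest in WT control 2 (4.88, not well above background) and highest in WT CCl4 3 (10.62). All CCl4 arrays but WT CCl4 1 were on the second slide. No test was made on these mean shifts.

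**Figure D3:**
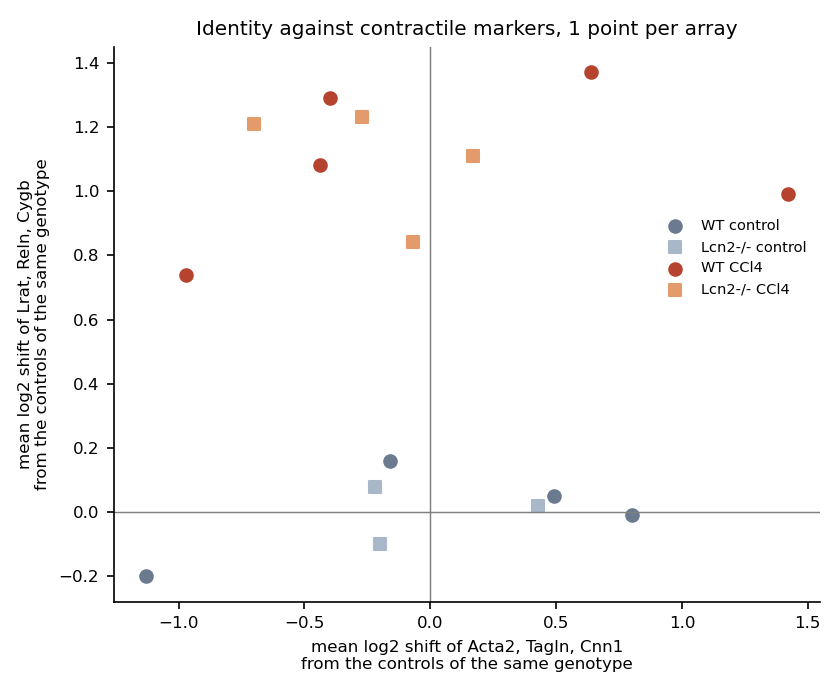
Each point is 1 array, placed by its mean log2 shift from the controls of its own genotype over Acta2, Tagln and Cnn1 (horizontal) and over Lrat, Reln and Cygb (vertical). All CCl4 arrays lie at or above 0.74 on the vertical axis and all control arrays at or below 0.16, whereas on the horizontal axis the control arrays run from -1.13 to 0.8 and the CCl4 arrays from -0.97 to 1.42.

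No gene of the 10 differed between the genotypes at the threshold. Under CCl4, 0 of 10 passed (0.636% of all genes did), 0 had an unadjusted p under 0.05 (13.7% of all genes), and in 0 of them did the genotypes fail to overlap (5.66% of all genes). The differences ranged from -1.42 (Cnn1, 95% interval -3.41 to 0.57) to 0.41 (Reln, 95% interval -0.12 to 0.95). In controls, 0 of 10 passed, against 0.53% of all genes, and 2 had an unadjusted p under 0.05 (8.3% of all genes), Pdgfrb (-0.56, 95% interval -1 to -0.12, adjusted p = 0.39) and Ngfr (-0.67, 95% interval -1.15 to -0.19, adjusted p = 0.316). For these 2 the control groups did not overlap, as for 9.64% of all genes, with Lcn2-/- mice lower. With array weights the control difference of Ngfr was -0.68 and passed (adjusted p = 0.0331). The test of whether CCl4 acted differently in the 2 genotypes called 0 of 10 genes (0.0534% of all genes), with 0 at an unadjusted p under 0.05 (3.33% of all genes). The slides hold both genotypes, and within a slide 0 of 10 genes passed in either genotype comparison.

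In the order of the group means, Pdgfra, Pdgfrb, Lrat, Des and Cygb ran from Lcn2-/- control through WT control and Lcn2-/- CCl4 to WT CCl4. Neighbours of the same treatment overlapped for these 5 genes, except that the control groups of Pdgfrb did not. WT control and Lcn2-/- CCl4 arrays overlapped for Des and Cygb and were apart for Pdgfra, Pdgfrb and Lrat. Reln ran from WT control through Lcn2-/- control and WT CCl4 to Lcn2-/- CCl4, and the steps within a treatment overlapped. Ngfr ran from Lcn2-/- CCl4 through WT CCl4 and Lcn2-/- control to WT control, where only the step to WT control separated neighbours without overlap. For Acta2, Tagln and Cnn1 every neighbouring pair of groups overlapped, and the range of the group means was 1.05, 0.96 and 1.42, beside pooled SDs of 0.697, 0.65 and 1.5.

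Acta2 and Cnn1 were correlated over the control arrays. Of 12 relations between genes computed, each with an exact two-sided permutation p, 2 passed 0.05 after adjustment on Pearson's r. Over the 7 control arrays r of Acta2 with Cnn1 was 0.925 (exact p = 0.00417, adjusted p = 0.025) and Spearman's rho was 0.929 (exact p = 0.00675, adjusted p = 0.081), and r was 0.784 without the 2 arrays with Acta2 farthest from its median (WT control 1 and 4). These permutations treat the 7 controls as exchangeable, although they hold both genotypes. Whether controls with the same replicate number were paired is not known. In values added after seeing the data, r was 0.921 without WT control 2, whose Cnn1 signal was not well above background, and 0.973 for deviations from the mean of each genotype. Over the 9 CCl4 arrays the same pair gave r = 0.787 (exact p = 0.0166, adjusted p = 0.0663), but -0.0109 without WT CCl4 2 and 3, so this relation rests on these 2 arrays. Pdgfra and Pdgfrb gave r = 0.872 over the CCl4 arrays (exact p = 0.00284, adjusted p = 0.025), rho = 0.8 (exact p = 0.0138, adjusted p = 0.083), 0.85 without the 2 farthest arrays and 0.876 over the 8 CCl4 arrays of the second slide. Over the controls this pair gave r = 0.67 (exact p = 0.0927, adjusted p = 0.222).

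No relation of Tagln to Acta2 or Cnn1 passed after adjustment. Its r with Acta2 was -0.287 over the controls (exact p = 0.52, adjusted p = 0.645), where rho was -0.357 (exact p = 0.444, adjusted p = 0.593). Over the CCl4 arrays r was 0.541 (exact p = 0.129, adjusted p = 0.257), or 0.621 without WT CCl4 2 and 3, and rho was 0.7 (exact p = 0.0433, adjusted p = 0.13). Over the same CCl4 arrays rho of Acta2 with Cnn1 was 0.533 (exact p = 0.148, adjusted p = 0.295). For Tagln with Cnn1, r was -0.282 over the controls (exact p = 0.537, adjusted p = 0.645) and 0.04 over the CCl4 arrays (exact p = 0.923, adjusted p = 0.923). Neither Acta2 with Des nor Acta2 with Pdgfrb passed after adjustment in either set. As a description over all 16 arrays, the genes most like Acta2 were Myl9 (r = 0.908), Actg2 (r = 0.86) and Cnn1 (r = 0.831), a myosin light chain, an enteric actin and calponin. Cnn1 was most like Actg2 (r = 0.953), followed by Gabrp (r = 0.857) and Spink4 (r = 0.842). The genes most like Tagln were an unnamed intergenic transcript (r = 0.957), Ptpa (r = 0.915) and a further unnamed transcript (r = 0.911), with no contractile gene among the first 3. Pdgfra was most like Antxr1, Arhgef25 and Loxl1 (r = 0.99 each), Pdgfrb like Gli3 (r = 0.983), Lrat like Adgra2 (r = 0.979), Reln like Msrb3 (r = 0.935), Cygb like Cdk14 (r = 0.972), Des like Cyp4f16 (r = 0.963) and Ngfr like Hlcs (r = 0.928). These 16 arrays share 2 slides and hold 4 groups, and differences between groups and slides enter these r values.

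**Figure D4:**
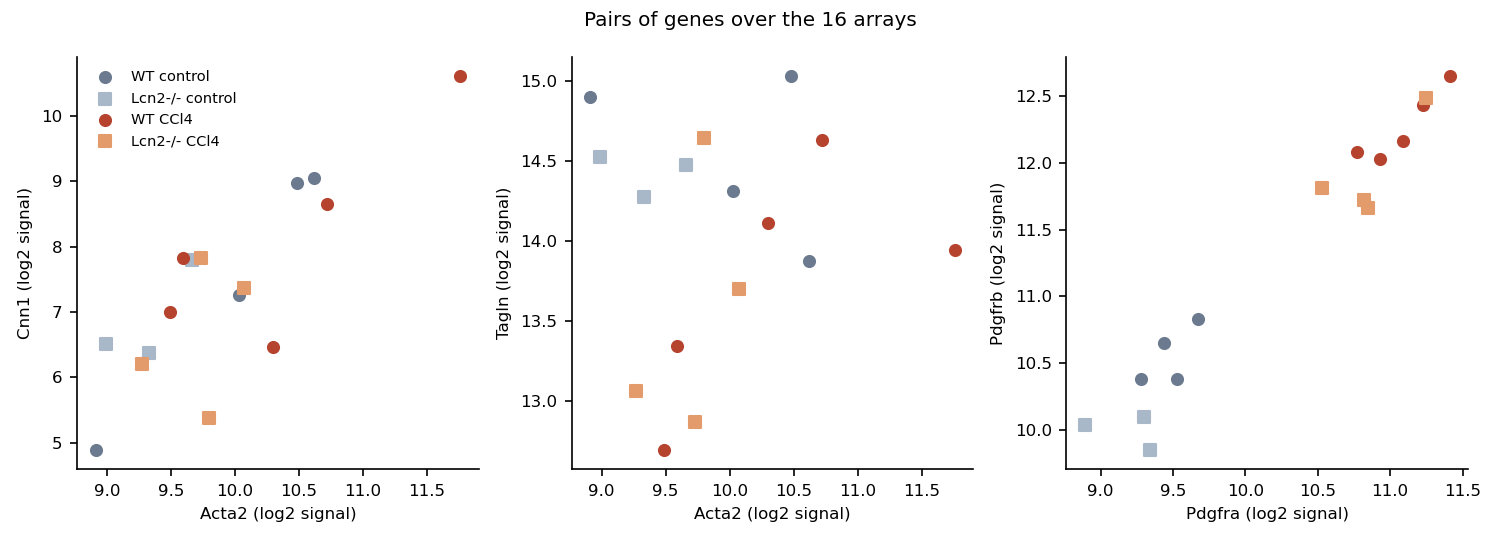
Log2 signals of 3 pairs of genes on the 16 arrays, 1 point per array, coloured by group. Acta2 and Cnn1 rise together over the control arrays (r = 0.925), while over the CCl4 arrays r falls from 0.787 to -0.0109 without WT CCl4 2 and 3; Acta2 and Tagln have r = 0.0986 over all arrays, and Pdgfra and Pdgfrb form a low control cluster and a high CCl4 cluster.

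The gene lists below are read beside the shares of all genes called higher (8.01% in WT, 6.57% in Lcn2-/- mice) and lower (8.8% and 5.61%), and a count of 1 in a short list is not set apart from them. Of 12 other smooth muscle genes tested, 3 rose in WT and 0 in Lcn2-/- mice, with medians of 0.35 and 0.18. The 3 were Tpm2, a tropomyosin (1.07, SE 0.257, adjusted p = 0.0105), Myl6, a myosin light chain made in most cells (0.43, SE 0.132, adjusted p = 0.0407), and Flna, an actin crosslinker (1.02, SE 0.326, adjusted p = 0.046). In Lcn2-/- mice their differences were 0.93, 0.4 and 0.62, with adjusted p of 0.0534, 0.102 and 0.307. Smtn was at 0.37 (adjusted p = 0.136) in WT, Myl9 at 0.36 (adjusted p = 0.402) and Actg2 at 0.2 (adjusted p = 0.879).

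Serum response factor and YAP drive contractile and injury genes. Of 9 of their regulators and targets tested, 3 rose in WT and 2 in Lcn2-/- mice. In direction, 5 were higher and 4 lower in WT (median 0.04), and 7 were higher and 2 lower in Lcn2-/- mice (median 0.3). Tead1, the DNA-binding partner of YAP, rose by 1.51 (SE 0.114, adjusted p = 2.15e-06) in WT and 1.5 (SE 0.13, adjusted p = 1.11e-05) in Lcn2-/- mice. Mrtfb, a coactivator of serum response factor, rose by 0.55 (adjusted p = 0.00338) and 0.57 (adjusted p = 0.00911), and Ccn2, connective tissue growth factor, by 1.82 (adjusted p = 0.00251) in WT, with 1.24 (adjusted p = 0.0578) in Lcn2-/- mice. Yap1 itself was at -0.2 and -0.29 (adjusted p = 0.188 and 0.106), and Ccn1 at -0.61 and 0.08 (adjusted p = 0.0912 and 0.881).

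Matrix genes of myofibroblasts rose in the same livers. Of 13 tested, 11 rose in WT and 9 in Lcn2-/- mice, with medians of 2.15 and 1.97. Postn rose by 1.83 (SE 0.152, adjusted p = 4.26e-06) and 1.97 (SE 0.173, adjusted p = 1.12e-05), Lum by 2.78 and 2.53, Loxl1 by 2.77 and 3.18, and Col3a1 by 2.64 and 3.2.

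Other genes that mark quiescent stellate cells split in direction. Of 13 tested in each genotype, 3 rose and 3 fell in WT, and 2 rose and 3 fell in Lcn2-/- mice. Hhip, an inhibitor of hedgehog signalling, fell in both, at -2.74 (SE 0.367, adjusted p = 0.000169) and -2.45 (SE 0.418, adjusted p = 0.00171). Ecm1 fell as well, at -0.69 (adjusted p = 0.0016) and -0.76 (adjusted p = 0.00307), as did Angptl6, at -0.89 (adjusted p = 0.000524) and -0.57 (adjusted p = 0.0291), while Hand2, a transcription factor of stellate cells, rose by 1.01 (adjusted p = 0.00123) and 0.71 (adjusted p = 0.0329). Of 12 retinoid genes other than Lrat, 4 rose in WT and 2 in Lcn2-/- mice. Rarb, a retinoic acid receptor, rose by 1.02 (adjusted p = 0.00169) and 0.94 (adjusted p = 0.00926), and Bco1, a carotene oxygenase, by 0.6 and 0.65 (adjusted p = 0.00779 and 0.014). Cyp26a1, which breaks down retinoic acid, was at 0.99 and 1 (adjusted p = 0.0335 and 0.0692).

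**Figure D5:**
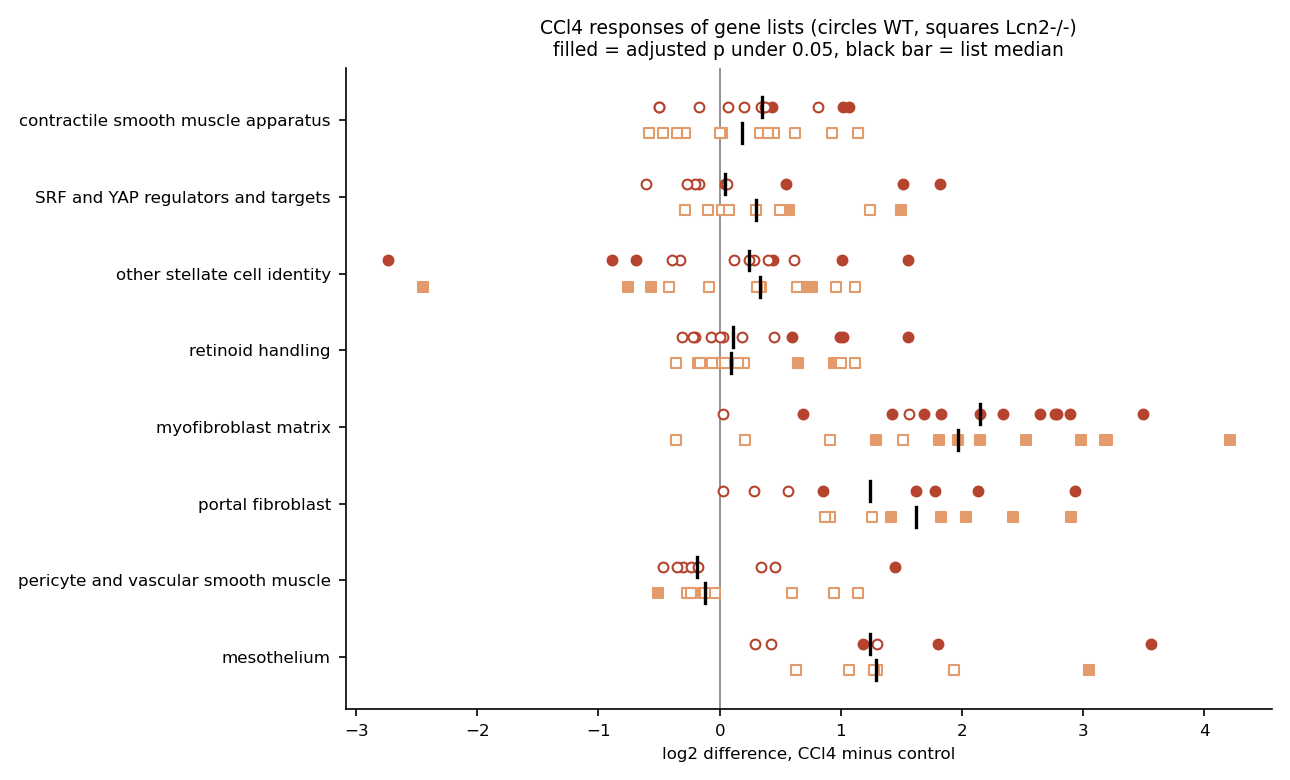
Log2 difference between CCl4 and control for the genes of 8 lists in WT (circles) and Lcn2-/- (squares) mice, filled at an adjusted p under 0.05, with the list median as a black bar. The matrix list has medians of 2.15 and 1.97, the contractile list medians of 0.35 and 0.18.

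Ligands and partners of the receptors were read next. Of the 4 PDGF ligand genes, Pdgfb rose by 1.44 (SE 0.214, adjusted p = 0.000371) and 1.55 (SE 0.243, adjusted p = 0.000945). Pdgfd passed in WT (adjusted p = 0.00442), where 1 of 4 control and 5 of 5 CCl4 arrays were well above background, so its fitted difference of 1.41 rests on dim control values. In Lcn2-/- mice its CCl4 signal was higher by at least 1.31-fold (adjusted p = 0.0354), since their controls were not well above background. Pdgfa (0.57, adjusted p = 0.055, and 0.12, adjusted p = 0.771) and Pdgfc (-0.39, adjusted p = 0.1, and -0.04, adjusted p = 0.926) did not pass. Among 9 neurotrophin and reelin partners, 5 rose and 1 fell in WT, and 3 rose and 0 fell in Lcn2-/- mice. Sort1, which pairs with the Ngfr protein, rose by 1.23 (adjusted p = 0.00324) in WT, with 0.82 (adjusted p = 0.0722) in Lcn2-/- mice, and Vldlr, a reelin receptor, rose by 1.2 (adjusted p = 0.047) and 1.77 (adjusted p = 0.0171). Ntrk3, a neurotrophin receptor, passed in WT (fitted difference 2.03, adjusted p = 0.000238), where 2 of 4 control arrays were well above background, and its rise in Lcn2-/- mice was at least 3.93-fold (adjusted p = 0.000134). Ntf5 was at least 4.84-fold higher in WT (adjusted p = 2.56e-05) and passed in Lcn2-/- mice (fitted difference 1.64, adjusted p = 0.00507), where 1 of 3 control arrays was well above background.

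Markers of other cells that share these transcripts were read in the same way. Of 8 portal fibroblast genes, 5 rose in each genotype, among them Mfap4 (2.93 and 2.9, adjusted p = 7.45e-06 and 3.5e-05), Eln (1.62 and 2.42), Cd34 (2.13 and 2.03) and Gli1 (1.78 and 1.83). For Eln and Gli1, 2 of 3 Lcn2-/- controls were well above background, so their Lcn2-/- differences rest partly on dim control values. The summed log2 signal of the list was 11.92 to 13.49 on the control arrays and 13.3 to 14.72 on the CCl4 arrays. Of 6 mesothelial genes, 3 rose in WT and 1 in Lcn2-/- mice, led by Wt1 (3.56 and 3.05, adjusted p = 4.29e-05 and 0.000669), with sums of 10.21 to 11.87 in controls and 11.55 to 13.71 under CCl4. Their part in the rises of Pdgfra, Pdgfrb and the identity markers was not tested. Of 9 pericyte and vascular smooth muscle genes, 1 rose in WT (Cspg4, 1.45, adjusted p = 0.00152; 3 of 4 controls were above background) and 1 fell in Lcn2-/- mice (Higd1b, -0.51, adjusted p = 0.0489). Of the 4 Schwann cell genes tested, 0 passed in either genotype, and 1 of the 4 was well above background on all arrays. Of 6 skeletal muscle genes 2 passed the filter, and 0 of them passed the test. Of 5 cholangiocyte genes 1 rose in each genotype (Spp1, 1.67 and 2.1, adjusted p = 0.0193 and 0.0147). Of 6 sinusoidal endothelial genes, Lyve1 rose in both genotypes (1.52 and 1.92, adjusted p = 0.028 and 0.0211) and Stab2 fell in WT (-0.43, adjusted p = 0.0301). Of 5 Kupffer cell and macrophage genes, Cd68 rose in both (2.12 and 1.84, adjusted p = 0.00673 and 0.0378), and Clec4f and Timd4 fell in WT (-1.03 and -1.29, adjusted p = 0.00533 and 0.0291). In the genotype comparisons and the interaction, 0 genes of any of these lists passed.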

How the data were processed

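RNA of 16 livers was hybridised to 1-colour Agilent mouse arrays. The deposited intensity of each spot was the processed signal of the image software, background subtracted by it, with coordinates on mm9 per the file headers. A table of log2 values, which the authors had quantile normalized, was used as an alternative source. Control spots and outlier spots were left out, log2 intensities were quantile normalized over the arrays, and spots of a probe were averaged. A probe was kept where at least 3 arrays read it well above background, and the probe with the highest mean stood for each symbol.

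The 4 groups entered 1 linear model of limma (version 3.58.1, moderated by eBayes; R version 4.3.3), with Benjamini-Hochberg adjustment over all 24357 genes within a contrast at 0.05. Correlations used exact permutation tests, in Python 3.11.15, and figures were drawn with matplotlib 3.10.9. On simulated data the fit recovered 45% of genes changed by 1 and 92% of those changed by 2 on the log2 scale in the WT response, with 8 false calls. There, 200 of 24357 genes were changed, with independent normal noise and no slide effect. In the measured WT response 16.8% of genes were called, so the recovery in these data can differ. All 10 genes were named whatever their values, together with up to 4 genes per list with the lowest adjusted p in the mean response, and the 3 genes most like each member. Called list genes outside this rule were named after their values were seen, and 1 gene that the rule names is not reported here. The members and lists were chosen with earlier results of these data known. Arrays give no counts, and their number limits the precision. Alternatives were 75th percentile scaling, normexp, the authors' values, other filters, the mean of probes, slide or replicate number as a block, array weights, leaving out both controls 3, and leaving out each array.

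Replicate numbers were checked through the correlation of deviations from group means. It was 0.233, 0.368 and 0.552 between controls of the genotypes with the same number. Between their CCl4 arrays it was 0.012, 0.252, 0.0262 and -0.221, and these ranges overlap. Arrays with different numbers were not compared, so the values do not decide whether the numbers pair the arrays.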

Additional observations from a re-analysis of the deposited data

How the results depend on the processing

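Over 10 other settings and 16 fits without 1 array, Acta2, Tagln and Cnn1 were called in none. Apart from slide as a block, Pdgfra and Pdgfrb stayed called in both responses, as did Ngfr and Lrat in WT. With slide as a block both CCl4 responses rest on WT CCl4 1, so that fit does not decide these calls. The cause of the changes below was not tested, and fits without an array have fewer samples. Without 1 array, the members called ranged from 5 to 7 in the WT response and from 3 to 5 in the Lcn2-/- response, and the genes called from 2498 to 5110 and from 1683 to 3200. They ranged from 76 to 187 between genotypes under CCl4, from 94 to 143 in controls and from 8 to 15 in the interaction.

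With 75th percentile scaling Des was at 0.81 (WT) and 0.83 (Lcn2-/-) and Reln at 0.76 (WT), no longer called. The interaction called 7 genes with normexp and 3 in the authors' values, and 216 genes differed in controls with no filter. With slide as a block, 1302 genes (WT) and 425 genes (Lcn2-/-) were called, with 3 members in Lcn2-/- mice. Cnn1 in WT turned to -1.07 and the Tagln interaction to 0.03. With the replicate block, 92 genes differed under CCl4 and 6 in the interaction, Cygb in Lcn2-/- mice was called (1.11, adjusted p = 0.0171) and the Acta2 interaction was -0.14. With array weights, 7054, 6954, 323 and 1270 genes were called in the WT and Lcn2-/- responses, under CCl4 and in controls, and 1 member in controls. Without both controls 3, 255 genes differed under CCl4, the Cygb control difference was 0.2, and the Acta2, Tagln and Pdgfra interactions were -0.15, 0.06 and -0.13.

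Differences that changed sign without 1 array were small or uncalled. In the WT response Acta2 ranged from 0 to 0.58 and Cnn1 from -0.31 to 1.08, and Cnn1 from -0.57 to 0.25 in the Lcn2-/- response. Between genotypes under CCl4, Tagln ranged from -0.53 to 0.06 and Lrat from -0.17 to 0.08. In controls Tagln ranged from -0.33 to 0.06, Reln from -0.05 to 0.28 and Cygb from -0.2 to 0.13. The interaction ranged from -0.19 to 0.4 for Acta2, -0.42 to 0.17 for Tagln, -1.27 to 0.12 for Cnn1, -0.07 to 0.38 for Des, -0.06 to 0.19 for Pdgfra and -0.03 to 0.25 for Lrat.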
